A study of Mus musculus with 18 samples.

Results

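The integrated stress response and the unfolded protein response were followed through 37 genes, chosen by name from a table of 24514 genes for their known place in these pathways. No threshold on measured values was used, but earlier results of these data were known when the list was made. Of these, 24 formed the ATF4 part, which holds the transcription factor Atf4, its partners and the genes that ATF4 switches on. The other 13 formed the ER part, the chaperones and regulators of the endoplasmic reticulum (ER). All 37 were found in the table and all 37 passed the filter on low counts, as did 13802 genes in all. In the integrated stress response, kinases that sense a lack of amino acids, misfolded ER proteins, viral RNA or a lack of heme phosphorylate the initiation factor eIF2, which slows most translation while that of ATF4 rises. ATF4 then binds composite elements in the promoters of genes for amino acid synthesis, amino acid import and its own feedback inhibitors. In the unfolded protein response, the sensors IRE1, PERK and ATF6 start the transcription of ER chaperones and of the machinery that disposes of misfolded ER proteins, and fibroblasts, which secrete collagen in bulk, use much of this machinery without stress.

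The cells were of 1 line, iMGT-Myh6-eGFP, mouse embryonic fibroblasts with doxycycline-inducible Mef2c, Gata4 and Tbx5 (MGT), factors that turn fibroblasts toward cardiomyocytes, and a green fluorescent reporter driven by Myh6. They were transfected in 384-well plates, at 1000 cells per well, with an siRNA against Chst7 (siChst7), which encodes a sulfotransferase of the Golgi apparatus, or with a control siRNA (siControl). The next day, called day 0, doxycycline was added to 1 µg/mL. The 6 groups were siChst7 and siControl at day 0, taken without doxycycline, at day 1 and at day 3 of induction. Each had 3 biological replicates by their labels, and each replicate pooled 40 wells. Every group carried the inducible factors and a transfected siRNA, and no cells without doxycycline were taken at days 1 and 3, so that induction and time since transfection cannot be told apart. The title of the series ties the experiment to the maintenance of fibroblast identity in cardiac reprogramming.

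Totals ran from 30590742 to 50021142 counts per library, and the lowest count of any of the 37 genes in any library was 151, for Pycr1. Values are in CPM, the usual unit for counts divided by the depth of their library, with totals scaled by TMM, a method that allows for differences in composition. Chst7, the targeted gene, had 0.238, 0.611 and 0.465 CPM in siChst7 and 19.7, 18.6 and 19.2 CPM in siControl at day 0. At day 1 it had 0.949, 0.581 and 0.733 CPM in siChst7 against 40.4, 37.2 and 35.3 CPM in siControl, and at day 3 it had 2.96, 1.87 and 1.64 CPM in siChst7 against 25.6, 23.8 and 25.9 CPM in siControl, so that the siChst7 and siControl libraries did not overlap on any day. Of 7 fibroblast markers, the collagens Col1a1 and Col1a2 with Vim, Pdgfra and Dcn were detected in every library, while Thy1 and Lum reached at most 0.445 and 0.230 CPM. The summed level of 6 endothelial markers was at most 4.07 CPM and that of 5 epithelial markers at most 0.612 CPM. That of 6 macrophage and leukocyte markers was at most 22.05 CPM and that of 4 adipocyte markers at most 26.7 CPM. Most of the macrophage and leukocyte sum was Cd68, with 1032 counts in siChst7 replicate 1 of day 0. In that library Csf1r had 36 counts, Itgam 32, and Ptprc and Adgre1 0. These are bulk libraries, in which fewer cells of a type and less RNA per cell cannot be told apart.

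The siChst7 libraries of day 3, and replicate 3 of siChst7 at day 0, stood apart from the rest. Between replicates of the other 4 groups the chi-square per degree of freedom of their counts was 2.90 to 5.27, but it was 21.5 to 56.7 among the siChst7 libraries of day 3 and 14.8 and 14.5 between siChst7 replicate 3 of day 0 and its replicates 1 and 2. In the siChst7 libraries of day 3 the difference from siControl ran against gene length, with a Spearman rho across genes of -0.31, -0.26 and -0.33. In siChst7 replicate 3 of day 0 it ran the other way, with a rho of 0.21, against -0.05 and -0.04 in its replicates 1 and 2. The ribosomal transcript Rn45s took 1.96%, 0.605% and 0.654% of the counts in the siChst7 libraries of day 3, against 0.399% to 0.542% in siControl at day 3. Values without these libraries, or corrected for the length trend, are given beside many of the calls they end and beside the values they move most. A call printed without such a value can still be lost without 1 of these libraries. The fit shared its spread across all groups, so that SE and adjusted p at day 3 can understate the spread of the siChst7 libraries. With only the compared libraries in the fit, 4683 genes were called at day 3 in place of 6165.

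To show the elements through which these pathways act, promoter windows of 250 bases before to 50 bases after the start site were taken from RefSeq (GRCm38.p6), which held 21 of the 24 ATF4 genes and 11 of the 13 ER genes. The members without a window were Slc7a5, Cth, Eif4ebp1, Atf6 and Manf. The windows were searched on both strands for the ATF4 composite element CARE (TGATGNAA) and for 3 elements of the unfolded protein response, ERSE (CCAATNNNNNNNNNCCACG), ERSE-II (ATTGGNCCACG) and the UPRE core (TGACGTGG). ERSE, ERSE-II and the reverse strand of the UPRE core share the letters CCACG, and no site here matched more than 1 of these motifs. CARE was found in 5 of the 21 ATF4 genes and in 1 of the 11 ER genes (Herpud1), against 4.51% of 27025 genes with a window. ERSE was found in 5 of the 11 ER genes and in 0 of the 21 ATF4 genes, against 0.137% of all genes with a window. ERSE-II was found in Herpud1 alone among the members and in 0.0444% of all genes, and the UPRE core in 0 members and 0.714% of all genes. A match is a description of the letters and not a measured binding site, and a missing match says only that the letters are not in the window.

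The matches in the ATF4 part follow, with 6 bases on each side, read along the gene's own strand with the motif in capitals. A motif on the reverse strand appears as its reverse complement. They are shown because CARE is the element through which ATF4 is known to act.
Asns, chr6:7693160-7693459, minus strand, match at -23 from the start site: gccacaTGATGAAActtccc
Trib3, chr2:152344011-152344310, minus strand, match at 15: tcaggtTTACATCAgccggg
Chac1, chr2:119350992-119351291, plus strand, match at -193: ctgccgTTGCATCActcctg
Pycr1, chr11:120643699-120643998, minus strand, match at -103: tgtgtaTGATGCAAtgcaca
Nupr1, chr7:126625421-126625720, minus strand, match at -110: gccagaTTGCATCAgacagg

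The matches in the ER part, written in the same way, lie in 5 genes of chaperones and folding enzymes and in Herpud1, and they are shown because Hsp90b1, Calr and Hspa5, the most abundant members, are among them.
Hspa5, chr2:34771840-34772139, plus strand, ERSE at -65: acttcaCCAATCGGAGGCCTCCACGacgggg
Hsp90b1, chr10:86705395-86705694, minus strand, ERSE at -212: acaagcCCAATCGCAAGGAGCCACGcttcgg
Hsp90b1, same window, ERSE at -107: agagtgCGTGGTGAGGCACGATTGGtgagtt
Calr, chr8:84846882-84847181, minus strand, ERSE at -162: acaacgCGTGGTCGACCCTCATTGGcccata
Pdia6, chr12:17266339-17266638, plus strand, ERSE at -98: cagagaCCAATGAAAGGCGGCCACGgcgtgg
Creld2, chr15:88819396-88819695, plus strand, ERSE at -126: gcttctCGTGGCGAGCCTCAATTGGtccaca
Herpud1, chr8:94386179-94386478, plus strand, CARE at -112: ggcgggTTGCATCAgcccgc
Herpud1, same window, ERSE-II at -52: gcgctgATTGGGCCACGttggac

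The whole windows of the amino acid gene Asns and of the chaperone gene Hspa5 put a match of each kind in its context, again with the motif in capitals.
Asns: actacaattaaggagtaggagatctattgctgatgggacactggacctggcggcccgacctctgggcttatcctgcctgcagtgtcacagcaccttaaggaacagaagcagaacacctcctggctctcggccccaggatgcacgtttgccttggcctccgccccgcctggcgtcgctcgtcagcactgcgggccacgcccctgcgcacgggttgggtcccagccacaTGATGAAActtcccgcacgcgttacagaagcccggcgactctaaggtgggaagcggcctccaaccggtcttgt
Hspa5: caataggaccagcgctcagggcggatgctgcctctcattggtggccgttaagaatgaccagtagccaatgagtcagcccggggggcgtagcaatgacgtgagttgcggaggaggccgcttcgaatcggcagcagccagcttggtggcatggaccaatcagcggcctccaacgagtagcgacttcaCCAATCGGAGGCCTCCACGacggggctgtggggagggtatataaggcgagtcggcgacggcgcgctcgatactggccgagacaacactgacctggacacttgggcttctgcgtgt

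The ER chaperones were the most abundant members per length of transcript. The mean level over all 18 libraries was 595.5 CPM per kilobase for Hsp90b1, the ER member of the HSP90 family, 480.2 for the lectin chaperone Calr, 457 for the HSP70 chaperone Hspa5, known as BiP, and 162 for the disulfide isomerase Pdia6. Atf4 came next, at 136 CPM per kilobase, the highest of the ATF4 part. The lowest members were the alanine aminotransferase Gpt2, at 7.35, and the proline enzyme Pycr1, at 2.25 CPM per kilobase. Summed over its 24 genes the ATF4 part took 2267 to 2301 CPM in siChst7 against 2656 to 2672 CPM in siControl at day 0, and these ranges did not overlap. At day 1 the sums were 2114 to 2176 CPM in siChst7 against 2032 to 2111 CPM in siControl, again apart but with siChst7 higher. At day 3 they were 2079 to 2189 CPM against 2099 to 2118 CPM and overlapped. The 13 ER genes together took 4691 to 4870 CPM in siChst7 against 4604 to 4697 CPM in siControl at day 0, 5550 to 5586 CPM against 5356 to 5392 CPM at day 1, and 4568 to 4959 CPM against 4777 to 4915 CPM at day 3. Of the ER ranges only those of day 1 were apart.

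Before induction, Chst7 knockdown was accompanied by lower levels across the ATF4 part. In the edgeR quasi-likelihood test, with Benjamini-Hochberg adjusted p below 0.05 over all tested genes, 17 of the 24 genes fell in siChst7, 2 rose and 5 did not pass. Over all genes tested 27.4% were called, 13.5% lower and 13.9% higher. The median log2 fold change (log2FC) of the 24 genes was -0.30, against 0.01 for all genes. Without siChst7 replicate 3, 14 fell and 2 rose. Of the 5 fibroblast markers tested on this day, Pdgfra (0.91 ± 0.05) and Col1a2 (0.34 ± 0.05) were higher in siChst7, Vim (-0.37 ± 0.04) was lower, and Col1a1 and Dcn did not pass. The summed level of all 7, most of it Vim and the collagens, was 6621 to 7145 CPM in siChst7 and 7074 to 7337 CPM in siControl, and that of 4 adipocyte markers was 23.1 to 26.7 CPM against 16.3 to 18.3 CPM, nearly all of it Fabp4, with Adipoq, Plin1 and Cidec at or near 0. The part of these markers in the result was not tested. Because the members were chosen when a fall of Atf4 and Trib3 at day 0 was known, the count for this day is a description and not independent evidence.

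**Figure D1:**
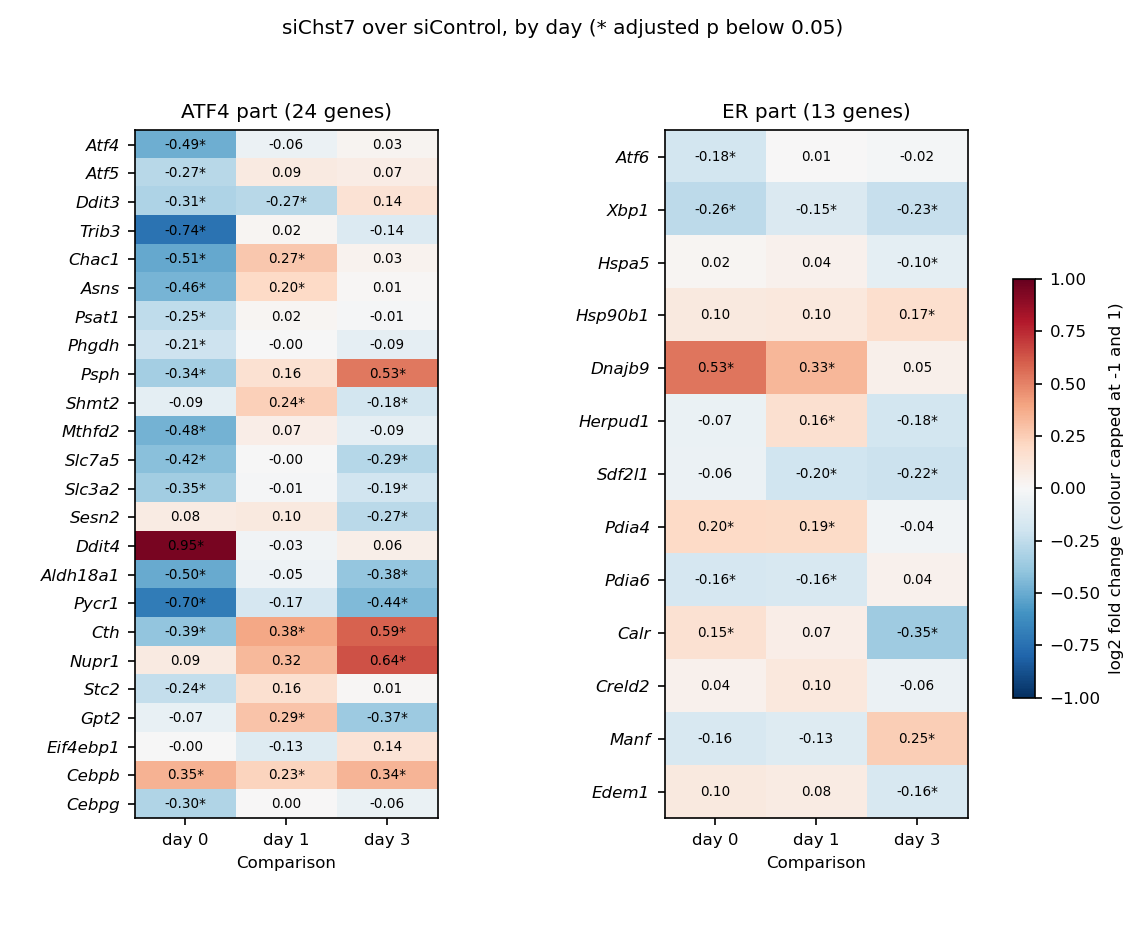
Log2 fold change of siChst7 over siControl at days 0, 1 and 3 for the 24 genes of the ATF4 part (left) and the 13 genes of the ER part (right), from the edgeR fit, with a star where the adjusted p was below 0.05 and colours capped at -1 and 1. At day 0 the ATF4 column holds 17 starred negative values, while the ER column holds 3 of each sign.

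Among the regulators, Atf4 itself fell. It had 217, 217 and 209 CPM in siChst7 and 292, 304 and 304 CPM in siControl (log2FC -0.49 ± 0.04, SE; edgeR adjusted p = 2.24e-08). All 3 siChst7 libraries lay below all 3 siControl libraries. Atf5, a related factor whose translation is also raised by phosphorylated eIF2, had 93.9, 92.7 and 98.4 CPM in siChst7 and 122, 115 and 107 CPM in siControl (-0.27 ± 0.06), without overlap. Ddit3, which encodes the pro-apoptotic factor CHOP, had 78.5, 83.1 and 75.6 CPM in siChst7 and 96.4, 96.7 and 100.2 CPM in siControl (-0.31 ± 0.07). Cebpg, a dimer partner of ATF4, fell by 0.30 on the log2 scale, whereas Cebpb, another bZIP factor, rose, with 208, 207 and 218 CPM in siChst7 and 168, 168 and 163 CPM in siControl (0.35 ± 0.06). Cebpb was 1 of the 2 members of the ATF4 part that were higher in siChst7.

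Among the feedback and stress effectors, Trib3 and Chac1 fell. Trib3, a pseudokinase that ATF4 and CHOP induce and that restrains both, had 25.6, 25.7 and 24.4 CPM in siChst7 and 43.2, 41.5 and 41.9 CPM in siControl (log2FC -0.74 ± 0.08, edgeR adjusted p = 2.12e-07), the lowest fold change of the 37 genes. Chac1, a glutathione-degrading enzyme, had 12.0, 11.2 and 10.5 CPM in siChst7 and 14.3, 16.7 and 17.2 CPM in siControl (-0.51 ± 0.09). In neither gene did the groups overlap. The secreted glycoprotein gene Stc2 fell by 0.24 on the log2 scale, a call lost without siChst7 replicate 3 (edgeR adjusted p = 0.0529) and in 3 other alternatives. Nupr1, a small stress-induced chromatin protein, had 20.0, 19.7 and 18.4 CPM in siChst7 and 17.8, 16.5 and 20.1 CPM in siControl, and these groups overlapped (0.09 ± 0.14, edgeR adjusted p = 0.691).

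Most genes of amino acid synthesis were lower as well. Asns, which makes asparagine and carries the CARE match printed above, had 68.0, 69.3 and 69.7 CPM in siChst7 and 95.9, 92.9 and 96.5 CPM in siControl (-0.46 ± 0.07, edgeR adjusted p = 1.13e-05). All 3 siChst7 libraries lay below all 3 siControl libraries. In the serine pathway Phgdh, Psat1 and Psph, its 3 successive enzymes, fell by 0.21, 0.25 and 0.34 on the log2 scale. The call of Psph was lost without siChst7 replicate 3 (edgeR adjusted p = 0.0935) or without siControl replicate 3 (0.058). Mthfd2, the mitochondrial folate enzyme that takes up the one-carbon units of serine, had 69.5, 74.3 and 65.4 CPM in siChst7 and 95.2, 97.2 and 98.5 CPM in siControl (-0.48 ± 0.05), without overlap. Shmt2, the enzyme before it in the mitochondrion, had 298 ± 9.95 CPM in siChst7 and 318 ± 3.6 CPM in siControl (SD, n = 3 each) and did not pass (-0.09 ± 0.04, edgeR adjusted p = 0.122).

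The proline enzymes Aldh18a1 and Pycr1 fell by 0.50 and 0.70 on the log2 scale. Pycr1 was the scarcest member, at 3.85, 3.44 and 3.51 CPM in siChst7 and 6.78, 5.14 and 5.71 CPM in siControl. Cth, which makes cysteine from cystathionine, fell by 0.39 on the log2 scale, a call lost without siChst7 replicate 2 or 3 or siControl replicate 1 (highest edgeR adjusted p = 0.0999). Gpt2 did not pass (-0.07 ± 0.07). The 2 chains of the large neutral amino acid transporter fell together, Slc7a5 with 184, 179 and 198 CPM in siChst7 and 252, 242 and 254 CPM in siControl (-0.42 ± 0.06), and its heavy chain Slc3a2 with 201, 205 and 202 CPM in siChst7 and 258, 258 and 258 CPM in siControl (-0.35 ± 0.04). Neither overlapped between groups.

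The inhibitors of mTORC1 and of cap-dependent translation were not among the genes that fell. Ddit4, also known as REDD1, had 57.4, 54.8 and 53.1 CPM in siChst7 and 29.5, 29.7 and 26.6 CPM in siControl (log2FC 0.95 ± 0.07, 1.93-fold, edgeR adjusted p = 2.07e-09). It had the highest fold change of the 37 genes, and every siChst7 library was above every siControl library. Sesn2, a leucine sensor that restrains mTORC1, had 45.5 ± 2.16 CPM in siChst7 and 43.0 ± 1.07 CPM in siControl (SD, n = 3 each), and Eif4ebp1, a repressor of cap-dependent translation, had 92.5 ± 2.86 CPM and 92.7 ± 3.24 CPM. Neither passed the test, with edgeR adjusted p = 0.463 and 0.977.

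**Figure D2:**
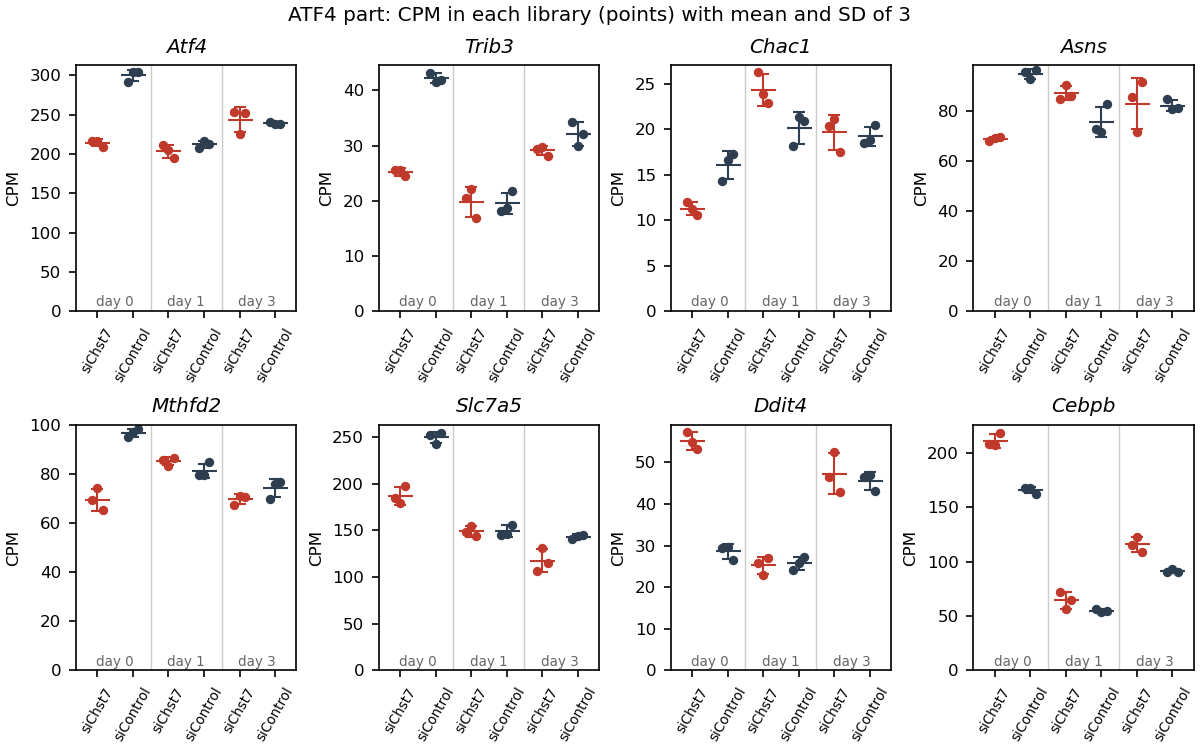
CPM in each library for 8 genes of the ATF4 part, with siChst7 in red left of siControl in dark blue within each day, and bars for the mean and SD of 3 libraries. At day 0 the siChst7 libraries lie below the siControl libraries for 6 of these genes and above them for Ddit4 and Cebpb, and at day 1 most pairs of groups lie close together.

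The ER part showed no common direction at day 0. Of its 13 genes, 3 rose in siChst7, 3 fell and 7 did not pass. The share called was 46.2%, against 27.4% of all genes, and the median log2FC was 0.02. With library totals alone in place of TMM, 5 rose and 2 fell. Dnajb9, which encodes the BiP co-chaperone ERdj4, rose, with 25.8, 24.2 and 22.7 CPM in siChst7 and 16.2, 16.8 and 17.4 CPM in siControl (0.53 ± 0.07, edgeR adjusted p = 3.27e-06), and its groups did not overlap. The disulfide isomerase Pdia4 rose by 0.20 and Calr by 0.15 on the log2 scale.

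The ER stress factor Xbp1 had 47.8, 45.2 and 43.1 CPM in siChst7 and 52.8, 53.2 and 57.0 CPM in siControl (-0.26 ± 0.05), without overlap. Counts per gene do not separate its spliced, active form from the unspliced form. Atf6, the membrane-bound sensor, fell by 0.18 and Pdia6 by 0.16 on the log2 scale, and the call of Pdia6 was lost with library totals alone (edgeR adjusted p = 0.0625). Hspa5, the classical target of ATF6 and XBP1, had 1324, 1327 and 1244 CPM in siChst7 and 1266, 1284 and 1296 CPM in siControl, and its groups overlapped (0.02 ± 0.04, edgeR adjusted p = 0.76). Hsp90b1 (0.10 ± 0.05) and Creld2 (0.04 ± 0.04), which like Hspa5 hold an ERSE match, did not pass either. Calr and Pdia6, which hold an ERSE match too, were called, in opposite directions.

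Other genes of the same pathways, in lists also chosen with earlier results known, gave the following counts at day 0. Of 20 cytosolic aminoacyl-tRNA synthetases, which charge tRNAs and many of which are ATF4 targets, 13 fell in siChst7 and 0 rose, with a median log2FC of -0.19. That is 65% of the list called, against 27.4% of all genes. Nars had 362, 379.6 and 372 CPM in siChst7 and 557, 553 and 541 CPM in siControl (-0.57 ± 0.04), and Wars, Gars and Aars fell by 0.55, 0.34 and 0.31 on the log2 scale. Of 12 genes for the eIF2 kinases, eIF2 and its regulators, 4 fell and 1 rose. Ppp1r15a, the stress-induced subunit of the eIF2 phosphatase, had 43.4, 45.4 and 49.5 CPM in siChst7 and 62.4, 63.0 and 61.7 CPM in siControl (-0.44 ± 0.06), without overlap.

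Of 12 further amino acid transporters 4 rose and 2 fell, among them Slc38a2 (0.50 ± 0.04) and Slc43a2 (0.93 ± 0.09), which were higher in siChst7, and Slc1a5 (-0.36 ± 0.06). Of 20 genes of ER folding and translocation 1 rose and 2 fell, of 14 genes of ER-associated degradation 4 rose and 2 fell, and of 7 ER stress sensors and activating proteases 2 rose and 1 fell. Among 8 mitochondrial chaperones and proteases 3 fell and 1 rose. Of 12 further enzymes of serine, one-carbon and proline metabolism 2 fell and 1 rose. Of the 9 tested of 10 cytosolic heat shock genes 4 rose and 1 fell, with Hspa1a (0.86 ± 0.12) and its near-identical copy Hspa1b (0.79 ± 0.12) the highest. Set against 27.4% of all genes, the share called was 50% for the transporters and the mitochondrial list, 55.6% for the heat shock genes, 42.9% for ER-associated degradation and for the ER sensors, and 41.7% for the eIF2 genes. It was 25% for the serine, one-carbon and proline enzymes, near the share of all genes, and 15% for ER folding, below it. Reads of the Hspa1a and Hspa1b pair can be split by the counting in a way not known here.

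At day 1 of induction most ATF4 genes did not pass the test. Of the 24 genes 6 rose in siChst7, 1 fell and 17 did not pass, with a median log2FC of 0.05. Over all genes 17.6% were called, 8.86% higher and 8.72% lower, and the median was 0.01. Atf4 had 211, 205 and 195 CPM in siChst7 and 208, 216 and 213 CPM in siControl (-0.06 ± 0.04, edgeR adjusted p = 0.386), and Trib3 had 20.5, 22.2 and 16.8 CPM in siChst7 and 18.1, 18.7 and 21.7 CPM in siControl (0.02 ± 0.08). In both genes the groups overlapped. Shmt2 and Gpt2 rose in siChst7, Shmt2 with 256, 263 and 248 CPM against 215, 216 and 219.7 CPM in siControl (0.24 ± 0.04) and Gpt2 with 35.9, 33.4 and 35.6 CPM against 28.6, 28.6 and 28.9 CPM (0.29 ± 0.07), both without overlap.

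The other day 1 calls of the ATF4 part were Cth (0.38 ± 0.11), Chac1 (0.27 ± 0.09), Cebpb (0.23 ± 0.06) and Asns (0.20 ± 0.07), which rose, and Ddit3 (-0.27 ± 0.07), which fell. Each of these 5 calls was lost without at least 2 single libraries in turn (highest edgeR adjusted p = 0.182, for Chac1), and without any one library of the day 4 or 5 of the 24 genes were called. Of the ER genes 3 rose and 3 fell, and their median log2FC was 0.07. The share called was 46.2%, against 17.6% of all genes. Dnajb9 remained higher, with 20.8, 22.8 and 21.9 CPM in siChst7 and 16.7, 18.2 and 17.1 CPM in siControl (0.33 ± 0.07, edgeR adjusted p = 0.00179), and so did Pdia4 (0.19 ± 0.04). Pdia6 (-0.16 ± 0.04) was lower, a call lost without siControl replicate 1 (edgeR adjusted p = 0.0549). The calls of Herpud1 (0.16 ± 0.05), Xbp1 (-0.15 ± 0.05) and Sdf2l1 (-0.20 ± 0.06) were lost without single libraries. Of 14 alternatives, 10 ended the call of Herpud1, 7 that of Xbp1 and 4 that of Sdf2l1. For Herpud1 these included DESeq2 size factors, library totals alone, no filter and the length offset, and for Xbp1 no filter. Without any one library 2 to 4 ER genes were called. Of the tRNA synthetases 1 rose and 1 fell, and of the further amino acid transporters 4 of 12 rose and 1 fell. In these lists 10% and 41.7% were called.

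The change of the knockdown difference between day 0 and day 1 was tested as an interaction term. In 17 of the 24 ATF4 genes the siChst7 difference was higher at day 1 than at day 0 and in 1 it was lower, with a median change of 0.36 on the log2 scale. Over all genes 11.7% were called, 6.2% higher and 5.5% lower, and the median was below 0.01. The change was 0.42 ± 0.06 for Atf4, 0.77 ± 0.11 for Trib3, 0.78 ± 0.13 for Chac1, 0.67 ± 0.09 for Asns and 0.55 ± 0.07 for Mthfd2 (edgeR adjusted p = 6.00e-05, 7.36e-05, 0.000174, 3.48e-05 and 1.00e-05). Ddit4 went the other way, at -0.98 ± 0.11 (edgeR adjusted p = 1.30e-06). It had 25.8, 22.9 and 27.0 CPM in siChst7 and 24.2, 25.7 and 27.4 CPM in siControl at day 1, with overlapping groups. Cebpb, which was called higher in siChst7 on both days, gave -0.12 ± 0.09 (edgeR adjusted p = 0.418). In the ER part 2 genes were called, Atf6 (0.19 ± 0.06) and Herpud1 (0.23 ± 0.07). With library totals alone or with DESeq2 size factors 0 were called. The ER share called was 15.4%, near the 11.7% of all genes. This term uses the same libraries as the differences at days 0 and 1 and is no separate measurement. The members were chosen with the fall of Atf4 and Trib3 at day 0 known. Its count is therefore a description and not independent evidence.

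At day 3 the ATF4 genes moved in both directions. In siChst7 4 of the 24 rose, 7 fell and 13 did not pass, with a median log2FC of -0.0025. Over all genes 44.7% were called, 23.1% higher and 21.6% lower, so that the share called in the ATF4 part was near that of all genes. With an offset for the length trend of each library, 3 rose and 11 fell, and without any one siChst7 library of the day 10 to 14 genes were called. Over all genes the median log2FC at day 3 was 0.55 in genes of up to 1000 bases and -0.08 in the class of the longest genes. The split of all-gene calls also moved, to 2766 higher and 3739 lower with DESeq2 size factors, against 3182 and 2983 with TMM.

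**Figure D3:**
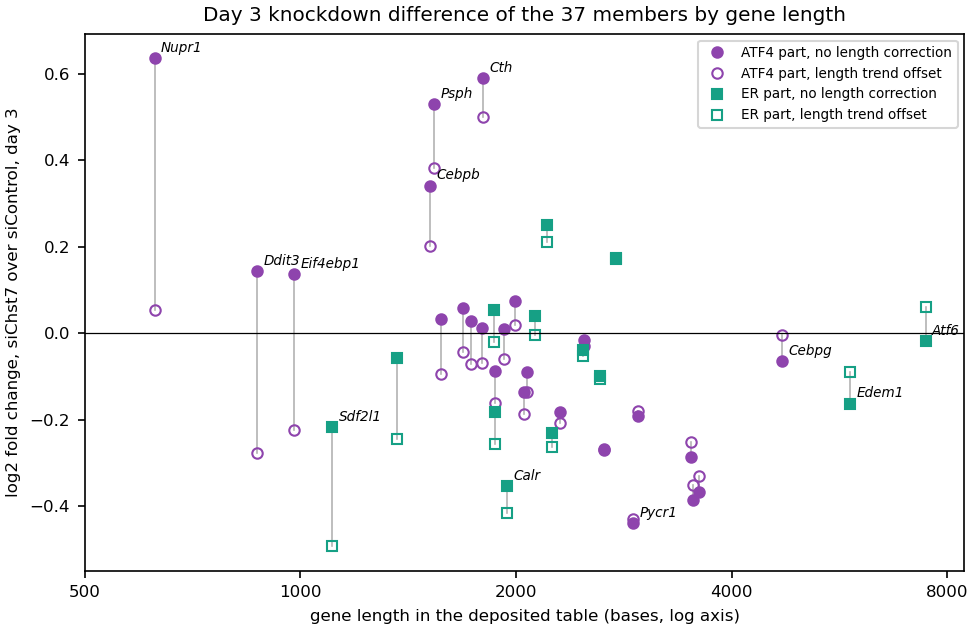
Log2 fold change of siChst7 over siControl at day 3 for each of the 37 genes against gene length in bases on a log axis, without (filled) and with (open) an offset for each library's trend with gene length, taken against the mean of its day. A line joins both values of a gene. The offset moves Nupr1 from 0.64 to 0.05 and Ddit3 from 0.14 to -0.28, both genes under 1000 bases, and moves longer genes such as Pycr1 little.

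Nupr1, the shortest member at 626 bases, had 129, 79.7 and 144 CPM in siChst7 and 73.6, 73.0 and 79.8 CPM in siControl (0.64 ± 0.13, edgeR adjusted p = 0.000337), with replicate 2 inside the siControl range. With the length offset its value was 0.05 (edgeR adjusted p = 0.606). Cth had 63.1, 49.5 and 72.6 CPM in siChst7 and 42.5, 41.3 and 39.1 CPM in siControl (0.59 ± 0.11), and Psph had 71.3, 54.5 and 83.5 CPM in siChst7 and 45.3, 47.3 and 51.9 CPM in siControl (0.53 ± 0.10). Neither overlapped, and with the offset they were 0.50 and 0.38. Cebpb had 116, 123 and 109 CPM in siChst7 and 90.6, 93.3 and 90.8 CPM in siControl (0.34 ± 0.06, and 0.20 with the offset), so that it was higher in siChst7 on all 3 days. Ddit3 and Eif4ebp1, both under 1000 bases, did not pass without the offset and were at -0.28 and -0.22 with it (edgeR adjusted p = 2.65e-05 and 0.00078).

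The genes that fell at day 3 were the transporter chains Slc7a5 (-0.29 ± 0.06) and Slc3a2 (-0.19 ± 0.04), the proline enzymes Aldh18a1 (-0.38 ± 0.06) and Pycr1 (-0.44 ± 0.12), Gpt2 (-0.37 ± 0.07), Shmt2 (-0.18 ± 0.05) and Sesn2 (-0.27 ± 0.08). Slc7a5 had 107, 131 and 115 CPM in siChst7 and 141, 143 and 145 CPM in siControl, and Gpt2 had 22.6, 26.0 and 21.0 CPM against 28.1, 29.7 and 32.0 CPM, both without overlap. All 7 also fell with the length offset, while the call of Sesn2 was lost with only the compared libraries in the fit and without siChst7 replicate 1 (edgeR adjusted p = 0.0753 and 0.0578). Atf4, with 253, 225 and 252 CPM in siChst7 and 240.04, 238 and 238 CPM in siControl, and Asns, with 85.6, 71.8 and 91.7 CPM against 84.8, 81.0 and 81.2 CPM, did not pass, and their siChst7 libraries straddled the siControl libraries.

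The ER part had 2 genes higher and 6 lower in siChst7 at day 3, with a median log2FC of -0.06. The share called was 61.5%, against 44.7% of all genes. Without siChst7 replicate 3 of the day 0 rose and 6 fell. Calr, which binds calcium and newly made glycoproteins, had 721, 789 and 705 CPM in siChst7 and 946, 925 and 960.3 CPM in siControl (-0.35 ± 0.04, edgeR adjusted p = 7.50e-07). Each siChst7 library was more than 100 CPM below each siControl library, and the value with the length offset was -0.42. Xbp1 was again lower, with 56.3, 51.5 and 55.2 CPM in siChst7 and 65.1, 62.5 and 63.4 CPM in siControl (-0.23 ± 0.05). Sdf2l1 (-0.22 ± 0.06), a BiP cofactor, and Herpud1 (-0.18 ± 0.05), which serves ER-associated degradation, also fell, and with the length offset they were at -0.49 and -0.26. Creld2 did not pass (-0.06 ± 0.04) but was at -0.24 with the offset (edgeR adjusted p = 0.000452). The offset left 2 ER genes higher and 6 lower, with Creld2 called in place of Edem1.

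The remaining 4 calls were weaker. Hspa5 (-0.10 ± 0.04), Edem1 (-0.16 ± 0.05), a lectin of ER-associated degradation, Hsp90b1 (0.17 ± 0.05) and Manf (0.25 ± 0.07), a secreted ER stress protein, each lost the call with only the compared libraries in the fit, where 4 ER genes were called. Hsp90b1 and Manf also lost it without siChst7 replicate 3 (edgeR adjusted p = 0.12 and 0.205), and Hsp90b1 without siChst7 replicate 1 (0.0651). Manf had 210.1, 171 and 231 CPM in siChst7 and 175, 167 and 173 CPM in siControl, with replicate 2 inside the siControl range. Edem1 also lost it with the length offset (edgeR adjusted p = 0.12). Dnajb9 did not pass at day 3, with 25.4, 25.6 and 25.6 CPM in siChst7 and 23.9, 22.8 and 27.0 CPM in siControl (0.05 ± 0.07).

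**Figure D4:**
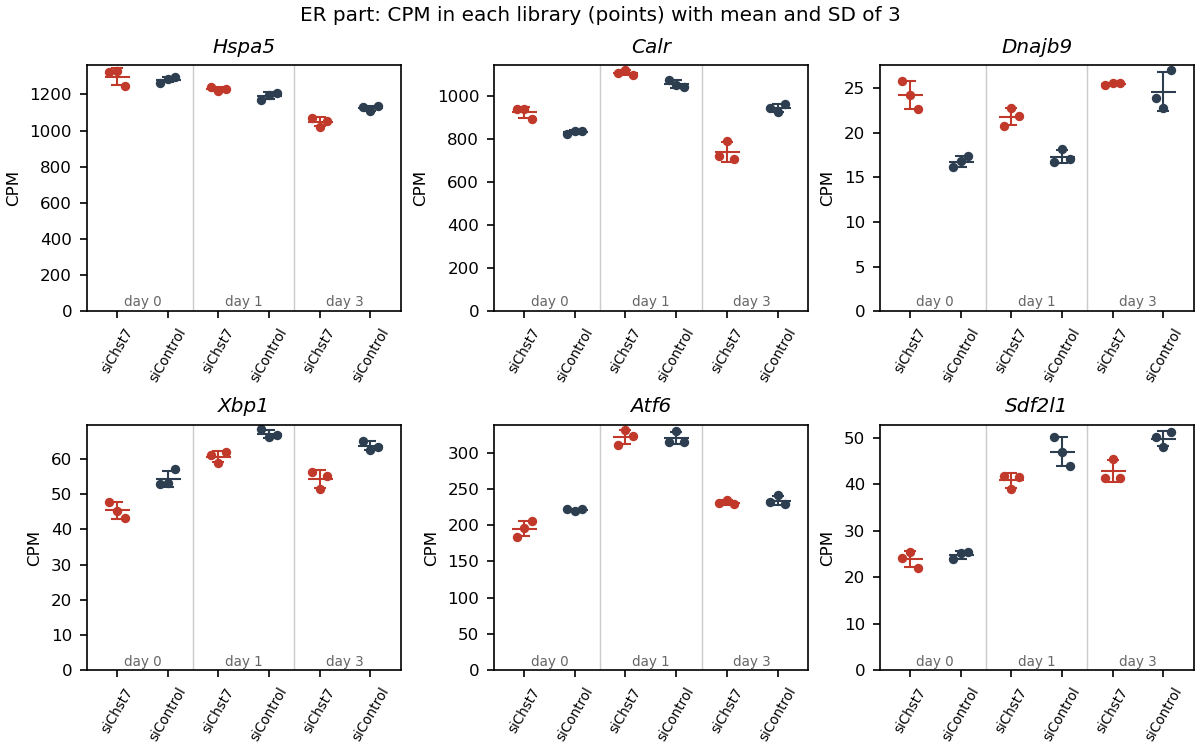
CPM in each library for 6 genes of the ER part, with siChst7 in red left of siControl in dark blue within each day, and bars for the mean and SD of 3 libraries. Calr lies above siControl at day 0 and below it at day 3, Xbp1 lies below siControl on each day, and Dnajb9 lies above it at days 0 and 1.

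Among the pathway lists at day 3, 11 of the 20 tRNA synthetases fell and 3 rose, with Wars (-0.47 ± 0.05), Eprs (-0.32 ± 0.04) and Aars (-0.40 ± 0.05) among those that fell. Of the further amino acid transporters 5 of 12 fell and 0 rose. Of the genes of ER-associated degradation 6 of 14 fell and 2 rose, with Sel1l (-0.34 ± 0.04) and Os9 (-0.30 ± 0.04) lower. In ER folding and translocation 7 of 20 rose and 8 fell. Sec61g (1.15 ± 0.11) and Ostc (0.67 ± 0.10) were higher, while Uggt1 (-0.34 ± 0.04) and P4hb (-0.31 ± 0.05) were lower. Set against 44.7% of all genes on this day, the share called was 70% for the tRNA synthetases, 75% for ER folding, 57.1% for ER-associated degradation and 41.7% for the transporters, the last of these near the share of all genes. The part of the length trend in these list counts was not tested.

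The knockdown difference changed again between days. From day 0 to day 3 it was higher in 13 and lower in 3 of the 24 ATF4 genes (median 0.24), over a background of 38.8% of all genes called, 20.7% higher and 18.1% lower. This count too is a description, since the members were chosen with the fall of Atf4 and Trib3 at day 0 known. The change was 0.51 ± 0.06 for Atf4, 0.98 ± 0.16 for Cth, 0.87 ± 0.14 for Psph and -0.89 ± 0.10 for Ddit4 (edgeR adjusted p = 2.02e-06, 7.00e-05, 6.21e-05 and 1.14e-06). For the ER genes the change was positive in 3 and negative in 4, with Calr at -0.51 ± 0.06 and Dnajb9 at -0.48 ± 0.10 (edgeR adjusted p = 8.80e-07 and 0.000451). Nupr1, at 0.54 ± 0.19, turned to -0.059 with the length offset (edgeR adjusted p = 0.740). From day 1 to day 3 the difference was lower in 6 and higher in 1 of the ATF4 genes. It was lower in 6 and higher in 2 of the ER genes. Over all genes 28.4% were called, 13.1% lower and 15.3% higher. The ATF4 share called was 29.2%, near that of all genes, and the ER share was 61.5%. Gpt2 (-0.65 ± 0.10), Shmt2 (-0.42 ± 0.06) and Calr (-0.42 ± 0.06) showed the lowest such changes. The higher ATF4 gene was Ddit3 (0.42 ± 0.10), whose call was lost with the length offset (0.046, edgeR adjusted p = 0.645). Without siChst7 replicate 2 of day 3, 16 of the ATF4 genes were called in place of 7.

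On the first day of induction in siControl cells, most ATF4 genes fell and most ER genes rose. Of the 24 ATF4 genes 13 fell from day 0 to day 1 and 6 rose (median log2FC -0.25), and of the 13 ER genes 10 rose and 1 fell (median 0.30). Over all genes 60.3% were called, 29.5% higher and 30.8% lower, with a median of -0.0016. Cebpb had 56.7, 53.8 and 54.9 CPM at day 1 and 168, 168 and 163 CPM at day 0 (-1.59 ± 0.06, edgeR adjusted p = 7.09e-16), the lowest fold change of the 37 genes. Trib3 fell to 18.1, 18.7 and 21.7 CPM at day 1, against 43.2, 41.5 and 41.9 CPM at day 0 (-1.11 ± 0.08), and Atf5 to 56.3, 58.5 and 56.3 CPM, against 122, 115 and 107 CPM (-1.01 ± 0.06). In none of these genes did the days overlap.

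Ddit3 (-0.81 ± 0.07), Slc7a5 (-0.74 ± 0.06), Slc3a2 (-0.63 ± 0.04), Shmt2 (-0.55 ± 0.04), Atf4 (-0.50 ± 0.04), Phgdh (-0.45 ± 0.04), Aldh18a1 (-0.41 ± 0.06) and Asns (-0.33 ± 0.07) were lower at day 1 as well. The ATF4 genes that rose were Nupr1 (0.84 ± 0.14), Cth (0.67 ± 0.12), Stc2 (0.52 ± 0.07), Gpt2 (0.42 ± 0.07), Psat1 (0.38 ± 0.05) and Chac1 (0.33 ± 0.09), so that Psat1 and Phgdh, neighbours in the serine pathway, moved in opposite directions. This comparison and the knockdown comparison of day 0 share the siControl libraries of day 0, so that their values are set side by side and not correlated: Atf4, for example, was at -0.50 in the first and -0.49 in the second.

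**Figure D5:**
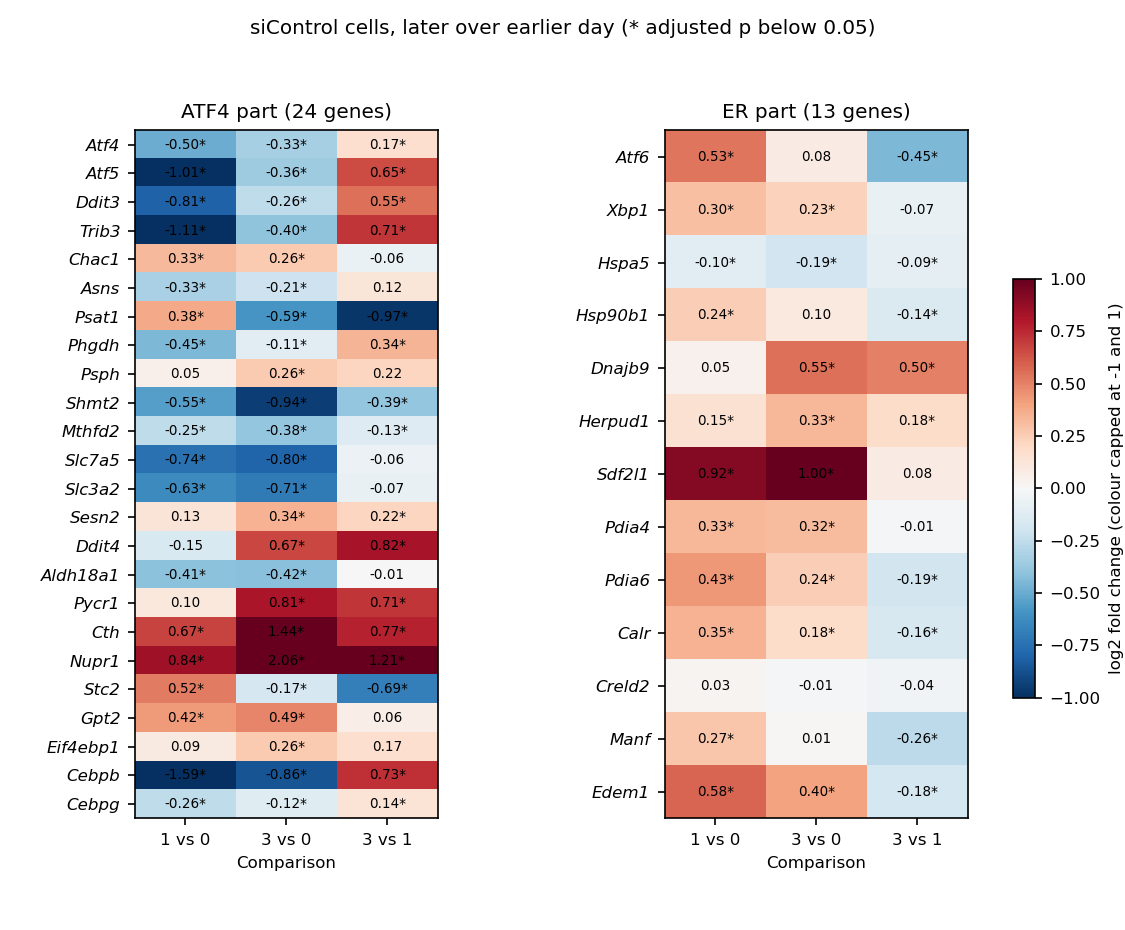
Log2 fold change in siControl cells at day 1 over day 0, day 3 over day 0 and day 3 over day 1, for the 24 genes of the ATF4 part (left) and the 13 of the ER part (right), with a star where the adjusted p was below 0.05 and colours capped at -1 and 1. In the first column the ATF4 part holds 13 starred negative values and the ER part 10 starred positive values.

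Among the ER genes, Sdf2l1 rose most, with 50.2, 46.8 and 43.9 CPM at day 1 and 23.9, 25.1 and 25.5 CPM at day 0 (0.92 ± 0.06, edgeR adjusted p = 2.00e-11). Edem1 (0.58 ± 0.05) and Atf6 (0.53 ± 0.04) followed, Atf6 with 315, 330.2 and 315 CPM at day 1 and 222, 219 and 222 CPM at day 0. The isomerases Pdia6 (0.43 ± 0.04) and Pdia4 (0.33 ± 0.04), Calr (0.35 ± 0.04) and Xbp1 (0.30 ± 0.05) rose without overlap between days. Hspa5 was the exception, with 1170.3, 1199.5 and 1209 CPM at day 1 and 1266, 1284 and 1296 CPM at day 0 (-0.10 ± 0.04), a call lost without siControl replicate 3 of day 0 or replicate 1 of day 1. Creld2 and Dnajb9 did not pass.

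In the wider lists at day 1, of 14 genes of ER-associated degradation 11 rose and 0 fell (median 0.23), and of 20 genes of ER folding 13 rose and 1 fell (median 0.22), among them Edem3 (0.84 ± 0.04) and the oxidase Ero1l (0.96 ± 0.05). The secretory regulator Creb3l1 had 12.5, 11.4 and 10.3 CPM at day 1 and 2.01, 1.68 and 2.43 CPM at day 0 (2.48 ± 0.12). Of the 5 tested fibroblast markers Vim (1.25 ± 0.04) and Col1a1 (0.34 ± 0.06) rose over the same day, while Col1a2 (-0.61 ± 0.05), Pdgfra (-0.85 ± 0.05) and Dcn (-2.02 ± 0.11) fell. Their sum, carried by Vim, was 12249 to 12704 CPM at day 1 against 7074 to 7337 CPM at day 0. The part of these markers in the changes of the ER genes was not tested. Of the tRNA synthetases 14 of 20 fell and 0 rose, and of the mitochondrial chaperones and proteases 7 of 8 fell (median -0.42). Over all genes 60.3% were called, 29.5% higher and 30.8% lower. The share called was 78.6% for ER-associated degradation, 70% for ER folding and for the tRNA synthetases, and 100% for the mitochondrial list.

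By day 3 all 24 ATF4 genes differed from day 0 in siControl, 15 lower and 9 higher, and their median log2FC was -0.19. Without single libraries 20 to 22 of them were called, and 19 to 24 under the other alternatives. Over all genes 73.4% were called, 39.5% lower and 33.9% higher, with a median of -0.05. With library totals alone that median was 0.10, and 10 ATF4 genes were lower and 9 higher. Nupr1 had 17.8, 16.5 and 20.1 CPM at day 0, 31.7, 30.4 and 35.6 CPM at day 1 and 73.6, 73.0 and 79.8 CPM at day 3 (day 3 over day 0, 2.06 ± 0.14, 4.16-fold). Cth had 16.2, 14.5 and 14.5 CPM, 23.0, 25.8 and 23.4 CPM and 42.5, 41.3 and 39.1 CPM on the same days (1.44 ± 0.12). Both genes rose at each step without overlap between days.

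Other ATF4 genes returned part of the way after day 1. Trib3 had 34.2, 30.0 and 32.0 CPM at day 3, against 18.1, 18.7 and 21.7 CPM at day 1 (0.71 ± 0.08), and Cebpb 90.6, 93.3 and 90.8 CPM, against 56.7, 53.8 and 54.9 CPM (0.73 ± 0.06). Both stayed below their day 0 levels (-0.40 ± 0.08 and -0.86 ± 0.06). From day 1 to day 3 12 ATF4 genes rose and 4 fell, over a background of 55.2% of all genes called, 22.8% higher and 32.3% lower. Ddit4 rose to 46.5, 47.0 and 43.1 CPM at day 3, against 24.2, 25.7 and 27.4 CPM at day 1 (0.82 ± 0.08). Shmt2 fell at each step, with 322, 315 and 317 CPM, 215, 216 and 219.7 CPM and 168, 163 and 166 CPM at days 0, 1 and 3 (-0.94 ± 0.04 at day 3 over day 0). Psat1 fell to 174, 172 and 177 CPM at day 3, against 339, 343 and 344 CPM at day 1 (-0.97 ± 0.05), after its rise on the first day.

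The direction of the smallest of these changes rested on the scaling. For day 3 over day 0, Phgdh (-0.11 ± 0.04) and Cebpg (-0.12 ± 0.05) turned to 0.036 and 0.028 with library totals alone. Stc2 (-0.17 ± 0.07), Asns (-0.21 ± 0.07) and Ddit3 (-0.26 ± 0.07) lost their calls with that scaling. Of 14 alternatives, Phgdh kept its call in 3, Cebpg in 5, Stc2 in 3, Asns in 11 and Ddit3 in 12. DESeq2 size factors and the DESeq2 test also ended the calls of Phgdh, Cebpg and Stc2.

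Of the ER genes 8 were higher at day 3 than at day 0 and 1 was lower (median 0.23), and with library totals alone 12 were higher and 0 lower. Over all genes 73.4% were called, 33.9% higher and 39.5% lower, and the ER share of 69.2% was near that. Sdf2l1 had 50.1, 48.0 and 51.2 CPM at day 3 and 23.9, 25.1 and 25.5 CPM at day 0 (1.00 ± 0.06), and Dnajb9 had 23.9, 22.8 and 27.0 CPM at day 3 and 16.2, 16.8 and 17.4 CPM at day 0 (0.55 ± 0.07). Neither overlapped. From day 1 to day 3 7 ER genes fell and 2 rose (median -0.09), but 1 fell and 4 rose with library totals alone, so that this direction rested on the scaling. The share called was 69.2%, against 55.2% of all genes. Atf6 kept its fall under every alternative run, with 231, 241 and 229 CPM at day 3 and 315, 330.2 and 315 CPM at day 1 (-0.45 ± 0.04). The mitochondrial chaperones and proteases were lower at day 3 than at day 0 in 7 of 8 cases (median -0.76), with Hspd1 at -1.72 ± 0.04, and 17 of the 20 tRNA synthetases were lower and 2 higher (median -0.37). The shares called were 100% and 95%, against 73.4% of all genes.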

How the data were processed

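The deposited table holds whole-number read counts per gene with a gene length for 18 libraries, made from poly-A RNA per the labels. The authors' tools were HISAT2, Subread, featureCounts and DESeq2 with the build mm10, per the submitters' processing notes. The sources used here give no versions, annotation or strand setting, so that reads of overlapping antisense genes or near-identical copies cannot be told apart.

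The counts were tested with edgeR 4.0.16 (R 4.3.3). Genes passing filterByExpr with a minimum count of 10 were kept, 13802 of 24514. Libraries were scaled by TMM and all 6 groups of 3 were fitted together, with 12 residual degrees of freedom and a common dispersion of 0.00331, a biological coefficient of variation of 5.75%. The quasi-likelihood F test gave 9 comparisons: siChst7 against siControl on each day, siControl between days, and the change of the siChst7 difference between days. Calls needed a Benjamini-Hochberg adjusted p below 0.05 over all tested genes. The SE of a log2 fold change is its size divided by the square root of F. Values in CPM use TMM-scaled totals, and levels per kilobase use the deposited gene length.

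The 37 genes and the pathway and marker lists were chosen with earlier results of these data known. Named genes were the 37 members, Chst7 and Rn45s, and from each other list up to 4 called genes with the smallest p and up to 2 uncalled genes with the highest CPM. Fibroblast and adipocyte markers were also named outside this rule, after their values were seen. The alternatives were DESeq2 1.42.0 size factors, library totals alone, no filter on low counts, a filter of at least 5 CPM in 3 libraries, a replicate block, an offset for each library's loess trend (span 0.5) with gene length, only the compared libraries, the DESeq2 test, and each library left out in turn. The length trend was that of a library's log CPM against the mean of all libraries of its day, siChst7 and siControl together. Part of the siChst7 trend of day 3 therefore enters the siControl offsets and the siControl comparisons between days. Same-numbered replicates of different groups did not deviate together, with correlations of their deviations from the group means of -0.0207 to 0.0615, so the numbers were not taken as pairs. The table holds 25 rows with symbols turned into dates, which were kept in the totals and are named nowhere. The fits were tested on simulated data. Promoter windows came from RefSeq for GRCm38.p6, and the motif search covered 32851 windows.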

Additional observations from a re-analysis of the deposited data

Results flagged for a closer look

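The results below drew attention because the siChst7 difference itself changed between days, by the interaction term of the edgeR fit with adjusted p below 0.05. Each value is the later day's log2 fold change of siChst7 over siControl minus the earlier day's. Because the members were chosen with the fall of Atf4 and Trib3 at day 0 known, the counts that involve day 0 are descriptions.

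Between day 0 and day 1, 20 of the 37 genes changed in this way, over a background of 11.7% of all genes. Among the regulators and stress effectors the change was 0.42 for Atf4, 0.37 for Atf5, 0.30 for Cebpg, 0.77 for Trib3, 0.78 for Chac1 and 0.40 for Stc2. Among the enzymes of amino acid synthesis it was 0.67 for Asns, 0.28 for Psat1, 0.21 for Phgdh, 0.50 for Psph, 0.33 for Shmt2, 0.55 for Mthfd2, 0.45 for Aldh18a1, 0.78 for Cth and 0.36 for Gpt2. The transporter chains gave 0.41 for Slc7a5 and 0.33 for Slc3a2. Ddit4, at -0.98, was the only negative value. In the ER part it was 0.19 for Atf6 and 0.23 for Herpud1, and the share called was 15.4%, near the background. Of 20 alternatives, 17 ended the call of Herpud1, 12 that of Atf6, 10 that of Phgdh and 7 that of Psph.

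Between day 0 and day 3, 23 of the 37 genes changed, over a background of 38.8%. The positive changes of the ATF4 part were 0.51 for Atf4, 0.35 for Atf5, 0.45 for Ddit3, 0.24 for Cebpg, 0.54 for Nupr1, 0.61 for Trib3, 0.54 for Chac1, 0.47 for Asns, 0.24 for Psat1, 0.87 for Psph, 0.39 for Mthfd2, 0.98 for Cth and 0.16 for Slc3a2. The negative ones were -0.89 for Ddit4, -0.35 for Sesn2 and -0.29 for Gpt2. In the ER part the change was 0.16 for Atf6, 0.20 for Pdia6 and 0.41 for Manf, and it was -0.48 for Dnajb9, -0.24 for Pdia4, -0.51 for Calr and -0.26 for Edem1. Of 20 alternatives, 12 ended the call of Atf6, 9 those of Slc3a2 and of Nupr1, and 4 those of Gpt2 and of Pdia6. The calls of Ddit3 and Nupr1 were lost with the length offset (edgeR adjusted p = 0.913 and 0.740), and the part of the length trend in the other changes was not tested beyond that offset.

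Between day 1 and day 3, 15 of the 37 genes changed, over a background of 28.4%. The ATF4 share called was 29.2%, near that background, and the ER share was 61.5%. In the ATF4 part the change was 0.42 for Ddit3, a call lost with the length offset (0.046, edgeR adjusted p = 0.645), and it was -0.42 for Shmt2, -0.28 for Slc7a5, -0.18 for Slc3a2, -0.37 for Sesn2, -0.33 for Aldh18a1 and -0.65 for Gpt2. In the ER part it was 0.20 for Pdia6 and 0.38 for Manf, and it was -0.14 for Hspa5, -0.28 for Dnajb9, -0.35 for Herpud1, -0.23 for Pdia4, -0.42 for Calr and -0.24 for Edem1. Of 20 alternatives, 9 ended the call of Hspa5, 6 that of Dnajb9 and 5 that of Pdia6.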

How the results depend on the processing

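Of 203 calls of single member genes over the 9 comparisons, 148 held under every alternative run, 55 were lost under at least 1 and 6 changed sign under at least 1. With library totals alone Phgdh, at 0.036, and Cebpg, at 0.028, changed sign in siControl at day 3 over day 0, and so did Mthfd2, at 0.016, Hspa5, at 0.0600, and Hsp90b1, at 0.0045, at day 3 over day 1. With the stricter filter Hspa5 was at 0.0021 for day 3 over day 1, and with the length offset Nupr1 was at -0.059 for the change of the siChst7 difference between days 0 and 3. The cause was not tested. The 19 ATF4 calls of the day 0 knockdown stayed at 18 or 19 under the alternatives and at 16 to 19 without single libraries. For the ER part, the 9 calls of siControl at day 3 over day 1 became 5 with DESeq2 size factors, library totals alone, no filter and the stricter filter. Its 2 calls for the change of the siChst7 difference between days 0 and 1 became 0 with DESeq2 size factors, library totals alone or no filter, 1 with the stricter filter, a replicate block or the length offset, and 0 to 2 without single libraries. The 7 ATF4 calls for the change between days 1 and 3 became 12 with no filter and 7 to 16 without single libraries. With only the compared libraries, all-gene calls were 3924 in place of 2426 at day 1 and 2448 in place of 1615 for the change between days 0 and 1, ATF4 calls at day 1 were 11 in place of 7, and ER calls at day 3 were 4 in place of 8. Without single libraries the day 1 knockdown called 4 to 5 ATF4 and 2 to 4 ER genes. The replicate block gave 3657 calls in place of 3785 at day 0, with 19 in the ATF4 part, and apart from the ER count above it moved no other count of calls by over 1.5 times. Scaling by library totals alone changed the split of all-gene calls to 2759 higher and 1217 lower for the day 0 knockdown, against 1916 and 1869 with TMM. For siControl at day 3 over day 0 it was 5808 higher and 4240 lower, against 4679 and 5452, and over day 1 it was 4833 and 2599, against 3150 and 4462. For the change of the siChst7 difference it was 521 and 1205 at day 1 over day 0, against 856 and 759, and 2101 and 3780 at day 3 over day 0, against 2853 and 2503. The all-gene median was then 0.10 for both siControl comparisons of day 3, against -0.05 with TMM, and -0.10, against 0.01, for the change between days 0 and 3. With TMM the day 3 knockdown split was 3182 higher and 2983 lower. It was 2766 and 3739 with DESeq2 size factors and 2689 and 3719 with library totals alone. More genes were also lower than higher with no filter, the stricter filter, the length offset and the DESeq2 test. A replicate block (3100 and 2924) and only the compared libraries (2494 and 2189) kept the TMM order. For siControl at day 3 over day 0, DESeq2 size factors gave 5225 higher and 4909 lower. With a lowest member count of 151, counting error limits only the scarcest members.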

Other observations

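The day-to-day levels within siChst7 cells were not tested, and the values below are a description. Atf4 had 217, 217 and 209 CPM in siChst7 at day 0 and 211, 205 and 195 CPM at day 1, while siControl had 292, 304 and 304 CPM at day 0 and 208, 216 and 213 CPM at day 1. The siChst7 libraries of day 0 overlapped in level with both groups of day 1, and the siControl libraries of day 0 did not. Mthfd2 had 69.5, 74.3 and 65.4 CPM in siChst7 at day 0, 85.9, 83.5 and 86.8 CPM at day 1 and 67.7, 71.1 and 70.9 CPM at day 3, with its highest level at day 1. In siControl it had 95.2, 97.2 and 98.5 CPM at day 0, 79.6, 79.7 and 84.9 CPM at day 1 and 70.1, 75.9 and 76.9 CPM at day 3, with its highest level at day 0. Ddit4 had 57.4, 54.8 and 53.1 CPM in siChst7 at day 0, 25.8, 22.9 and 27.0 CPM at day 1 and 46.6, 52.5 and 42.8 CPM at day 3, with its lowest level at day 1.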
